A study of Mus musculus with 32 samples.

Results

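The comparison is of mouse embryonic stem cells (ESCs) carrying a moderate amount of an inducible β-catenin fusion (C1M, 4 libraries) with the same β-catenin knockout line without the fusion induced (C1, 4 libraries). Both groups were in pluripotent culture, and their members were chosen from the sample labels alone, as 8 of the 32 libraries of the series. The C1 line is a β-catenin-/- ESC line that carries a doxycycline (dox)-driven fusion of a destabilizing domain (DD), mCherry and β-catenin S33Y, a form that escapes the phosphorylation that marks β-catenin for destruction. Trimethoprim (TMP) stabilizes the fusion. C1 cells received TMP at 10 μM alone and were sorted as living cells, whereas C1M cells received dox at 100 ng/mL with TMP at 10 μM for 48 h and were sorted as the middle mCherry fraction, so the fusion, dox and the mCherry sort came together and cannot be told apart. C1H is the high mCherry fraction of that same treatment. The labels describe serum with LIF as the growth medium, whereas the study's methods place these cells in 2i/L, which is LIF with a MEK and a GSK3 inhibitor, for 3 passages. All groups share the knockout. Under the account in the methods C1, C1M and C1H also share a GSK3 inhibitor, which the day 4 groups no longer received. All libraries derive from 1 engineered line, and the labels call the 4 libraries of a group biological replicates, whereas a legend in the study describes 4 samples of 1 experiment, so the p-values measure the spread between these libraries.

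β-catenin (Ctnnb1) works at the membrane and in the nucleus. At the membrane it links cadherins to α-catenin and actin, and in the nucleus it joins TCF/LEF factors, where it switches on Wnt targets such as Axin2 and relieves repression by TCF7L1. In ESCs that relief is known to release naive pluripotency genes such as Esrrb, Klf2 and Tfcp2l1.

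QuantSeq 3′ libraries gave 1797132 to 2493356 gene counts in C1 and 2300242 to 3008252 in C1M, so 3 counts in a library corresponded to 0.997 to 1.67 CPM, the counts of a gene scaled to a common library total. C1 replicate 2 stood apart on the second principal component (11.6% of the variance), at 40.6 against -21.2 to 5.89 for the other 7 libraries. The log2 CPM correlated across genes at 0.975 to 0.980 within the groups and at 0.956 to 0.964 between them, and the first principal component, with 41.4% of the variance, separated the groups. Without C1 replicate 2, 1791 genes rose and 1770 fell, with 29 rises in the meiosis and piRNA list described below, 19 in the 2-cell-like list, 58 among cytosolic ribosomal proteins and 21 in the respiratory chain, and 17 falls in glycolysis and 12 in cholesterol synthesis. Pluripotency genes were abundant in all 8 libraries, with Sox2 between 747 and 890.2 CPM and Nanog between 517 and 734 CPM. On the scale of library totals, which is used for summed levels unless stated otherwise, markers of fibroblasts summed to 53.1 to 68.4 CPM in C1 and 56.9 to 70 CPM in C1M over 17 genes, and those of blood cells to 97.4 to 113 and 75.5 to 102 CPM over 10 genes.

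Reads of Ctnnb1 itself (chr9:120929216-120960507, plus strand, GRCm38) were few in both groups. It gave 8.81, 6.23, 5.19 and 11.0 CPM in the C1 libraries and 9.76, 12.1, 9.45 and 17.7 CPM in the C1M libraries, and the groups overlapped. The log2 fold change of 0.61 ± 0.25 (SE, n = 4 per group) did not pass the threshold of the edgeR quasi-likelihood test (adjusted p = 0.0553), although it did without C1 replicate 4 (0.81, adjusted p = 0.022), without C1M replicate 1 (0.68, adjusted p = 0.0426), without C1M replicate 3 (0.71, adjusted p = 0.0344) and under library-size scaling (0.67, adjusted p = 0.0303). Ctnnb1 did not pass in the other fits that left out 1 library, down to 0.38 without C1M replicate 4 (edgeR adjusted p = 0.313). After thinning to 1 depth the estimate was 0.46 (edgeR adjusted p = 0.251). The C1H libraries averaged 41.2 ± 5.70 CPM (SD, n = 4), which was higher than in C1M (edgeR adjusted p = 1.56e-13). At day 4 the libraries kept on dox and TMP (C1MDT) averaged 29.2 ± 4.29 CPM, those uninduced (C1T) 9.74 ± 2.47 CPM and those withdrawn from the inducers (C1MV) 9.16 ± 2.57 CPM (SD, n = 4 each), and C1MDT was above C1T by 1.57 ± 0.21 on the log2 scale (edgeR adjusted p = 8.42e-11). Whether 3′ reads of the transgene map to Ctnnb1 is not given in the sources used here and was not tested.

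Across 15280 genes tested, 2184 were upregulated and 1838 were downregulated in C1M (edgeR quasi-likelihood test, Benjamini-Hochberg adjusted p under 0.05), or 26.3% of genes. Upregulated genes made up 54.3% of these calls, 64.6% under library-size scaling, where 2638 rose and 1447 fell, and 49.3% after thinning to 1 depth, where 1802 rose and 1854 fell. With 1 library left out the share was under 50% without C1 replicate 1 (49.9%), C1 replicate 3 (49.8%) or C1M replicate 2 (49.4%), so the balance of rises and falls over all genes depended on the setting. Large changes were mainly rises: 854 genes (5.59%) rose and 237 (1.55%) fell by more than 1 on the log2 scale. The excess of rises over falls lay among low genes, with 252 rises and 32 falls below 2 CPM, whereas above 500 CPM there were 74 rises and 112 falls. Among 10336 genes with a mean CPM of at least 5, 1649 rose and 1751 fell. Calls were more frequent in abundant genes: of genes of 20 to 100 CPM 15.7% rose and 17.0% fell, of those of 100 to 500 CPM 19.0% rose and 33.03% fell, and above 500 CPM 27.9% rose and 42.3% fell. After thinning every library to 1797132 counts, C1 libraries held 14577 to 14693 genes with a count and C1M libraries 15333 to 15418 (exact permutation test, two-sided p = 0.0286, the smallest that 4 against 4 allow, and 0.0514 adjusted over 9 library measures).

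**Figure D1:**
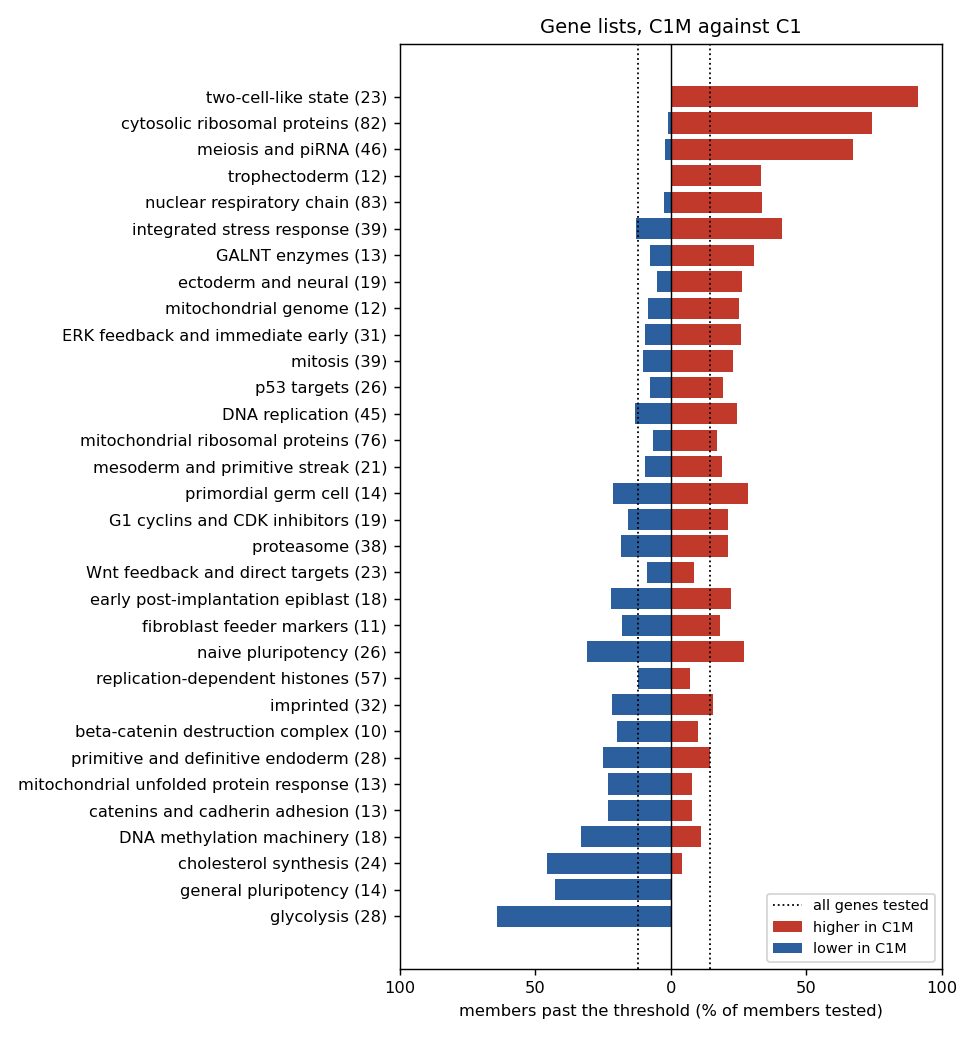
Share of the tested members of each gene list (number in brackets) called higher (right) or lower (left) in C1M than in C1, in percent, with dotted lines at the shares over all genes tested. The 2-cell-like, ribosomal protein and meiosis lists lay farthest to the right, and glycolysis farthest to the left.

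Most genes of meiosis and the piRNA pathway rose, also at moderate abundance. Of 46 tested genes of meiosis and the piRNA pathway, 31 rose and 1 fell, against 14.3% of all genes upregulated and 12.0% downregulated. Their median log2 fold change was 1.40, or 1.13 with genes at the detection floor set to their bound, against 0.06 over all genes. All 46 passed the filter on low values from the other 24 libraries alone. Among the 32 members with a mean CPM of at least 5, 23 rose and 1 fell. The summed level of the list was 629 to 686 CPM in C1 and 1350 to 1401 CPM in C1M.

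Dazl (chr17:50279395-50293636, minus strand, GRCm38), an RNA-binding protein of germ cells, was read at 17.6, 20.4, 19.7 and 15.3 CPM in C1 and at 69.6, 80.9, 76.0 and 80.1 CPM in C1M. Every C1M library was thus above every C1 library, by a log2 fold change of 2.07 ± 0.15 (edgeR adjusted p = 9.43e-25). Slc25a31, a mitochondrial ADP/ATP carrier of the male germ line, had 2.10, 2.26, 2.08 and 3.36 CPM in C1 and 15.7, 20.9, 20.2 and 15.3 CPM in C1M (log2 fold change 2.86 ± 0.31, edgeR adjusted p = 4.54e-14). Ddx4, a germ cell RNA helicase also known as vasa, rose by 1.40 ± 0.28 (edgeR adjusted p = 3.68e-05) and, outside the list, Tex19.2 by 3.07 ± 0.34 (edgeR adjusted p = 1.09e-13).

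Sycp1, Mov10l1 and Taf7l were named after their values were seen. Sycp1, a core protein of the synaptonemal complex that joins homologous chromosomes in meiosis, had 2.52, 5.66, 4.67 and 5.27 CPM in C1 and 30.1, 27.7, 26.4 and 29.3 CPM in C1M. Mov10l1, an RNA helicase of piRNA production, had 6.30, 9.06, 6.75 and 10.5 CPM in C1 and 45.8, 44.7, 49.2 and 37.97 CPM in C1M. Taf7l, a germ cell variant of a general transcription factor subunit, had 12.2, 12.5, 18.7 and 10.5 CPM in C1 and 48.4, 62.8, 63.9 and 50.4 CPM in C1M. The ranges of C1 and C1M did not overlap for these genes, as for 25.4% of all genes tested, and the log2 fold changes were 2.66 ± 0.24, 2.45 ± 0.20 and 2.08 ± 0.19. The 1 member that fell was Tex14, needed for the bridges between germ cells, at 46.6, 33.97, 35.3 and 42.2 CPM in C1 and 31.4, 25.5, 27.1 and 31.8 CPM in C1M (log2 fold change -0.47 ± 0.15, edgeR adjusted p = 0.0138), and this call was lost without C1 replicate 1 and after thinning to 1 depth. Of the list, 1 member, Brdt, differed between C1H and C1M, and it was higher in C1H.

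**Figure D2:**
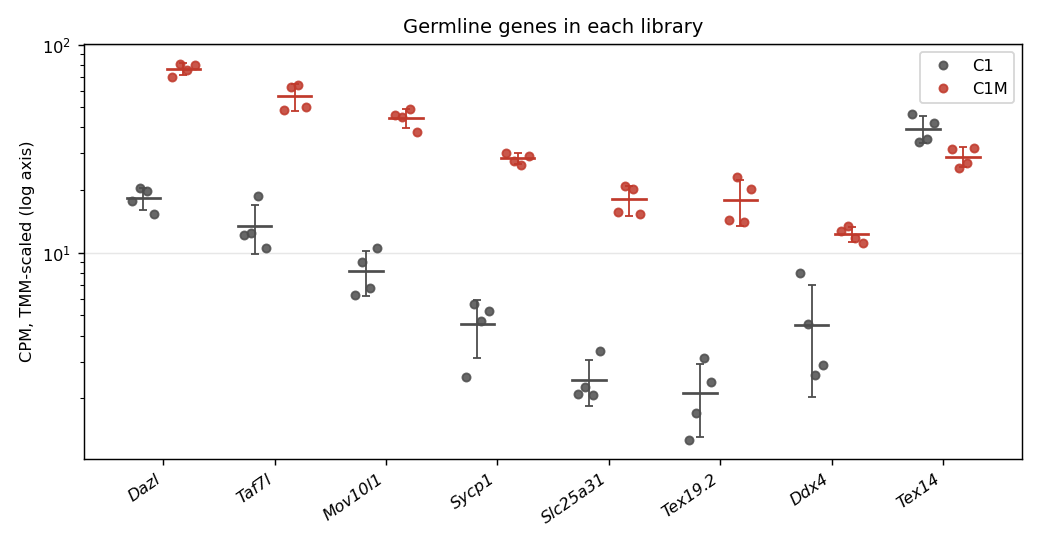
CPM of 8 germline genes in each library (log axis), with C1 in grey and C1M in red, points for single libraries, and bars for the mean ± SD (n = 4 per group). The groups were apart for all 8 genes, with C1M higher for 7 and lower for Tex14.

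Promoters of the 3 genes and of Dazl are shown because members that move together can be compared in sequence. Each is the RefSeq window from 250 bases before to 50 bases after the start of the gene in GRCm38.p6, printed 5′ to 3′ on the strand of the gene, with the palindrome CACGTG, an E-box, in capitals. The E-box was chosen for search after the list's values were known.
Sycp1 (chr3:102936051-102936350, minus strand): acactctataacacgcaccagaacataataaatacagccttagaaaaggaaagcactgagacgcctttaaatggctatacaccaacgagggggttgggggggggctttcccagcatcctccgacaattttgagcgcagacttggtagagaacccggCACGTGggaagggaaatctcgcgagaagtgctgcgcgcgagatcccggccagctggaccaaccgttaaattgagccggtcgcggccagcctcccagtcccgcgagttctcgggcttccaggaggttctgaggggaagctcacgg
Mov10l1 (chr15:88982744-88983043, plus strand): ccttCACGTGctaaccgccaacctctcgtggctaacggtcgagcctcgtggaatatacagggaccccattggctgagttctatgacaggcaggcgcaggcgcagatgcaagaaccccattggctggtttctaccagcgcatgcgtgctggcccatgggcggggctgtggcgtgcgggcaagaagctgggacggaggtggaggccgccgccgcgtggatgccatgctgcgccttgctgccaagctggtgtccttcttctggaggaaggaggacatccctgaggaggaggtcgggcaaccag
Taf7l (chrX:134476441-134476740, minus strand): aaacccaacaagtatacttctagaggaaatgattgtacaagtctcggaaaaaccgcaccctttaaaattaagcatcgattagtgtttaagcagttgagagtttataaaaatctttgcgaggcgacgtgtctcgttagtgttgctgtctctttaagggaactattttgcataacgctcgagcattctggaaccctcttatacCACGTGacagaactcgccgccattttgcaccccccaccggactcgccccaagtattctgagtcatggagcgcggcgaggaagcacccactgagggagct
Dazl (chr17:50293571-50293870, minus strand): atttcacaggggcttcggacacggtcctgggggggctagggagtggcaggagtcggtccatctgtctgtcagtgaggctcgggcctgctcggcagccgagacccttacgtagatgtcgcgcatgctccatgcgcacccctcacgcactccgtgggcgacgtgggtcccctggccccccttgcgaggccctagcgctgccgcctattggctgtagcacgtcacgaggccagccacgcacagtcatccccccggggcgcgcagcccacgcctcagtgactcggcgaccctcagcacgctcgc
CACGTG occurred in 17 of 40 promoters of the list that had a window (42.5%), in 11.5% of those of all genes tested and in 8.09% of all 27025 windows in the table. It was not found in the Dazl window. Among the 28 windows of upregulated list members the share was 46.4%. Over all genes, CACGTG occurred in 12.5% of the windows of upregulated genes and in 13.8% of those of downregulated genes, and its part in the rises was not tested. No 2-cell-like member of 12 with a window held it.

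Genes that mark the 2-cell-like state, a rare ESC state that resembles the early embryo after zygotic genome activation, were near 0 in C1 and higher in C1M. Of 23 tested members 21 rose (91.3%, against 14.3% of all genes, with 12.0% downregulated) and 0 fell in edgeR (0 fell at an unadjusted p under 0.05, and 0 in DESeq2), but 16 had at most 3 counts in every C1 library, so the list is described at low depth. The median log2 fold change was 2.94, or 1.92 with genes at the floor set to their bound. Members summed to 17.2 to 27.2 CPM in C1 and to 149 to 185 CPM in C1M, and the C1H libraries averaged 323 CPM. At a mean CPM of at least 5 there were 5 members and all 5 rose, whereas with a CPM of at least 1 required in all 8 libraries 2 members rose. Many members have near-identical copies, and reads that fit several copies were not counted, so single values are uncertain.

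Gm8300, an Eif1a-like gene of this group (chr12:87514316-87518266, plus strand, GRCm38), had 1.26, 1.13, 0.519 and 1.44 CPM in C1 and 20.0, 24.1, 16.6 and 19.8 CPM in C1M, and was at least 13.5-fold higher in C1M with C1 set to 3 counts per library. Spz1, a transcription factor of the testis, had 0 counts in every C1 library and 10, 5, 6 and 8 counts in the C1M libraries, or at least 1.89-fold higher. BB287469, another Eif1a-like gene, was at least 4.56-fold higher. Zfp352 had 0 counts in C1 and 1, 4, 2 and 5 counts in C1M, which is too few for a bound. Against C1M, 7 of the 23 members were called in C1H and these 7 were higher there, in a comparison that uses the same C1M libraries as that with C1, although 1 was called by DESeq2 and 4 without C1M replicate 2. The background for C1H against C1M was 1.77% of genes.

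Most genes of cytosolic ribosomal proteins rose, by small amounts. Of 82 cytosolic ribosomal protein genes, 61 rose (74.4%, against 14.3% of all genes) and 1 fell (1.22%, against 12.0%), with a median log2 fold change of 0.36. Their median level was 624 CPM, in the class above 500 CPM where 27.9% of all genes rose and 42.3% fell. Their share of gene counts was 7.07% to 8.03% in C1 and 9.51% to 10.0% in C1M, or 7.502% ± 0.425 and 9.76% ± 0.283 (SD, n = 4 each). The exact permutation test gave p = 0.0286, and 0.0514 after adjustment over 9 measures. Rpl12, of the large subunit, had 811, 889, 973 and 980.0 CPM in C1 and 1520.1, 1528, 1476 and 1548 CPM in C1M (log2 fold change 0.73 ± 0.06, edgeR adjusted p = 6.01e-20). Rpl36 rose by 0.78 ± 0.11 and Rps10 by 0.69 ± 0.07, whereas Rpl35 fell by 0.42 ± 0.12 on the log2 scale (edgeR adjusted p = 0.0101). Reads that fit processed copies of these genes elsewhere in the genome are not counted, and the share of aligned reads that fit several places was higher in C1M, at 53.4% ± 0.440 against 50.1% ± 0.822 in C1 (SD, n = 4). Its part in the result was not tested.

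Nuclear genes of the respiratory chain followed, with 28 of 83 upregulated (33.7%, against 14.3% of all genes) and 2 downregulated (2.41%, against 12.0%) and a median log2 fold change of 0.15. Their median level was 153 CPM, in the class of 100 to 500 CPM where 19.0% of all genes rose and 33.03% fell. Their share of gene counts was 1.40% to 1.54% in C1 and 1.67% to 1.79% in C1M. Cox6a2, a muscle-type subunit of cytochrome oxidase, was at least 3.32-fold higher in C1M, and Ndufa4 had 15.9, 18.1, 31.7 and 14.9 CPM in C1 and 39.9, 39.7, 35.2 and 27.7 CPM in C1M (log2 fold change 0.84 ± 0.17, edgeR adjusted p = 3.01e-05), with C1 replicate 3 inside the C1M range. Ndufa4l2, a gene known to rise in low oxygen, fell by 1.43 ± 0.46 (edgeR adjusted p = 0.0147), a call lost without C1 replicate 2 or 4. The share of counts from the mitochondrial genome was 2.35% ± 0.303 in C1 and 2.41% ± 0.146 in C1M (SD, n = 4, exact permutation p = 0.686), and 3 of its 12 tested genes rose and 1 fell (33.3% called, against 26.3% of all genes). Both nuclear lists were lower in C1H than in C1M: 28 of 82 ribosomal protein genes and 15 of 83 respiratory chain genes were called between these fractions, and all were lower in C1H, against 1.06% of all genes. The C1M libraries are in this comparison and in that with C1, so nothing is read from its direction. Without C1M replicate 2 these counts were 15 and 7, and without C1M replicate 1 they were 21 and 8.

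Most genes of glycolysis fell. Of 28 tested genes of glycolysis and pyruvate handling, 18 fell (64.3%, against 12.0% of all genes, with 14.3% of all genes upregulated) and 0 rose in edgeR (2 rose at an unadjusted p under 0.05, and 0 in DESeq2), with a median log2 fold change of -0.47. Their median level was 70.5 CPM, in the class of 20 to 100 CPM where 17.0% of all genes fell. Under library-size scaling 16 fell and 2 rose. Their share of gene counts was 0.606% to 0.638% in C1 and 0.425% to 0.468% in C1M (exact permutation p = 0.0286, and 0.0514 adjusted over 9 measures).

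Slc16a3 (chr11:120948480-120960868, plus strand, GRCm38), which exports lactate, had 98.6, 111, 115 and 81.5 CPM in C1 and 25.5, 29.8, 26.1 and 24.8 CPM in C1M. The C1 libraries were all above the C1M libraries, and the fitted level in C1 was 3.79-fold that in C1M (log2 fold change -1.92 ± 0.12, edgeR adjusted p = 8.95e-30). Pfkl, the liver-type phosphofructokinase that commits sugar to glycolysis, had 144, 124, 135 and 146 CPM in C1 and 40.3, 52.9, 49.2 and 61.1 CPM in C1M (log2 fold change -1.43 ± 0.10, edgeR adjusted p = 4.34e-26). Bnip3, a mitophagy receptor that low oxygen induces, fell by 1.05 ± 0.16. Txnip, which restrains glucose uptake, rose from 72.2, 104, 107 and 79.1 CPM in C1 to 328, 360.4, 364 and 263 CPM in C1M, the largest rise among genes with a mean CPM of at least 100 (log2 fold change 1.87 ± 0.17, edgeR adjusted p = 4.36e-09).

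**Figure D3:**
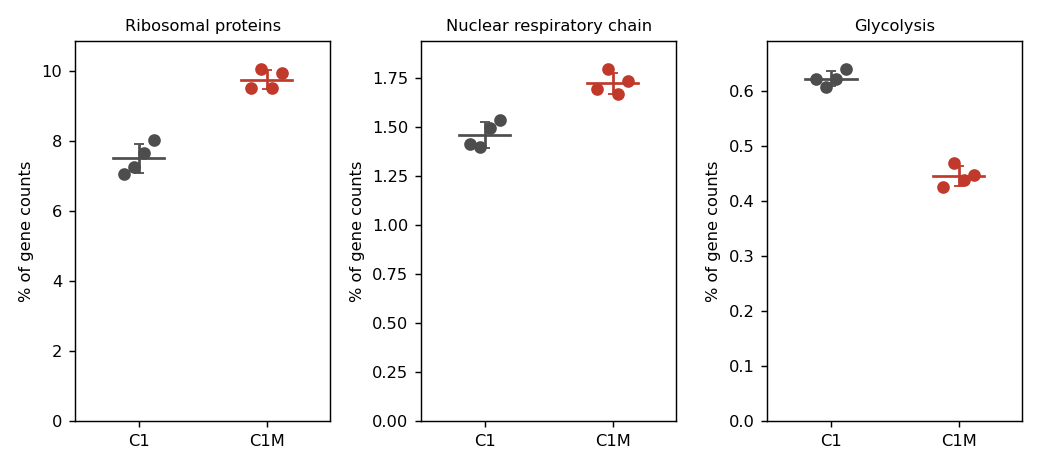
Percent of gene counts from cytosolic ribosomal protein, nuclear respiratory chain and glycolysis genes in each library (points), with the mean ± SD of the 4 C1 (grey) and 4 C1M (red) libraries. The groups did not overlap: C1M was higher in the first 2 panels and lower for glycolysis, at 0.425% to 0.468% against 0.606% to 0.638%.

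Cholesterol synthesis genes fell more often than they rose. Of 24 genes of cholesterol synthesis and its control, 11 fell (45.8%, against 12.0% of all genes) and 1, Ebp, rose (4.17%, against 14.3%), with a median log2 fold change of -0.26. Their median level was 87.1 CPM, in the class of 20 to 100 CPM where 17.0% of all genes fell. Lss, which closes the sterol rings, had 39.03, 30.6, 26.5 and 36.4 CPM in C1 and 19.5, 18.8, 18.6 and 20.2 CPM in C1M (log2 fold change -0.79 ± 0.16, edgeR adjusted p = 2.58e-05). Outside the list, Fasn, the fatty acid synthase, fell from 888, 728, 759.9 and 904 CPM in C1 to 301, 338, 320.5 and 395 CPM in C1M (log2 fold change -1.28 ± 0.12, edgeR adjusted p = 2.15e-09). Ebp had 74.7, 87.2, 71.1 and 79.6 CPM in C1 and 98.5, 91.9, 86.1 and 113 CPM in C1M, ranges that overlapped, and its call was lost in 4 of the 8 fits that each left out 1 library.

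Of 23 tested Wnt feedback genes and direct targets, 2 rose and 2 fell, or 17.4% called beside 26.3% of all genes, a gap of few genes that was not tested, and 7 of them had at most 3 counts in every C1 library. The 23 genes had a median level of 2.52 CPM, in the class of 2 to 5 CPM where 15.6% of all genes rose and 3.02% fell, so nothing particular to them is read from the gap. Their median log2 fold change was 0.23, or 0.01 with genes at the floor set to their bound. Axin2, the target most often used to read the pathway, had 0, 0, 5 and 3 counts in C1 and 6, 4, 10 and 4 counts in C1M (log2 fold change 1.15 ± 0.63, edgeR adjusted p = 0.176), which did not pass the threshold, although it passed without C1 replicate 3 (2.09, edgeR adjusted p = 0.0415).

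Tnfrsf19, a receptor also called Troy, rose from 1.68, 3.40, 2.60 and 3.36 CPM in C1 to 10.6, 14.9, 7.17 and 8.67 CPM in C1M (log2 fold change 1.91 ± 0.33, edgeR adjusted p = 6.34e-07). Nkd2, which dampens Wnt signaling, rose by 1.87 ± 0.45 (edgeR adjusted p = 0.000527). Notum, a secreted Wnt-inactivating enzyme, had 10, 14, 7 and 1 counts in C1 and 2, 2, 3 and 2 counts in C1M, with C1 replicate 4 below all C1M libraries, and its call was lost without C1 replicate 2. Ccnd1, which encodes cyclin D1, had 23.5, 33.97, 30.6 and 34.5 CPM in C1 and 17.4, 26.3, 24.1 and 21.5 CPM in C1M, overlapping ranges (log2 fold change -0.43 ± 0.15, edgeR adjusted p = 0.0231), and its call was lost under library-size scaling, after thinning to 1 depth, and without C1 replicate 2, C1 replicate 4 or C1M replicate 1.

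Of 4 TCF/LEF factors, Tcf7l1 fell, from 165, 159.7, 145 and 154 CPM in C1 to 92.97, 102, 108 and 123 CPM in C1M (log2 fold change -0.55 ± 0.09, edgeR adjusted p = 7.66e-07). None of the 4 rose in edgeR (0 at an unadjusted p under 0.05, and 0 in DESeq2). Of 10 genes of the destruction complex that marks β-catenin for degradation, 1 rose and 2 fell, so that 3 of 10 were called, near the 26.3% of all genes. Apc, its scaffold, fell from 169.6, 202, 158 and 152 CPM in C1 to 110.4, 100.4, 109 and 105 CPM in C1M (log2 fold change -0.68 ± 0.09, edgeR adjusted p = 5.6e-10). The kinase gene Csnk1a1 fell by 0.20 ± 0.06, a call lost under library-size scaling, and the ubiquitin ligase gene Fbxw11 rose by 0.35 ± 0.12, a call lost without C1 replicate 2 or 3 or C1M replicate 2.

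The TCF/LEF motif, searched as CTTTGAT or CTTTGTT on both strands, occurred in 7.16% of the promoter windows of upregulated genes, in 8.22% of those of downregulated genes and in 7.77% of those of all genes tested, against 10.6% of all windows. It occurred in 5 of the 19 Wnt target windows (26.3%). The Axin2 window (chr11:108920099-108920398, plus strand, GRCm38.p6), shown because Axin2 is the usual reporter of the pathway, held neither spelling, which says only that these letters are not in the window.
Axin2: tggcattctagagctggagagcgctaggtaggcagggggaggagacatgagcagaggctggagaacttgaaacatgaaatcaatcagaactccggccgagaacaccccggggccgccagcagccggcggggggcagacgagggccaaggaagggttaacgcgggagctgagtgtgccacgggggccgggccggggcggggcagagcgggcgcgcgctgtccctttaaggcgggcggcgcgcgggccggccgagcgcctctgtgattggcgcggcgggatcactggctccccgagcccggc

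At the adhesive side of β-catenin, 1 of 13 tested catenin and cadherin genes rose and 3 fell, so that 30.8% were called, near the 26.3% of all genes. The 1 that rose was Cdh1 (chr8:106603351-106670246, plus strand, GRCm38), which encodes E-cadherin, the classical cadherin of ESCs. It had 216, 228, 251 and 240.2 CPM in C1 and 611, 603, 612 and 649 CPM in C1M, a fitted 2.65-fold difference with no overlap (log2 fold change 1.41 ± 0.08, edgeR adjusted p = 5.77e-35). Jup, plakoglobin, a close relative of β-catenin, fell from 67.2, 70.8, 72.2 and 70 CPM in C1 to 42.9, 41.5, 38.8 and 33.4 CPM in C1M (log2 fold change -0.84 ± 0.13, edgeR adjusted p = 9.51e-08). Ctnna1, α-catenin, fell from 522, 474, 473 and 464 CPM in C1 to 409.6, 380.3, 381 and 347 CPM in C1M (log2 fold change -0.35 ± 0.07, edgeR adjusted p = 4.46e-05). Cdh2, N-cadherin, had 3.78, 5.66, 10.9 and 5.27 CPM in C1 and 4.67, 2.13, 3.91 and 1.65 CPM in C1M with overlapping ranges, and its call (edgeR adjusted p = 0.0293) was lost after thinning to 1 depth and without C1 replicate 3, C1M replicate 2 or C1M replicate 4.

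**Figure D4:**
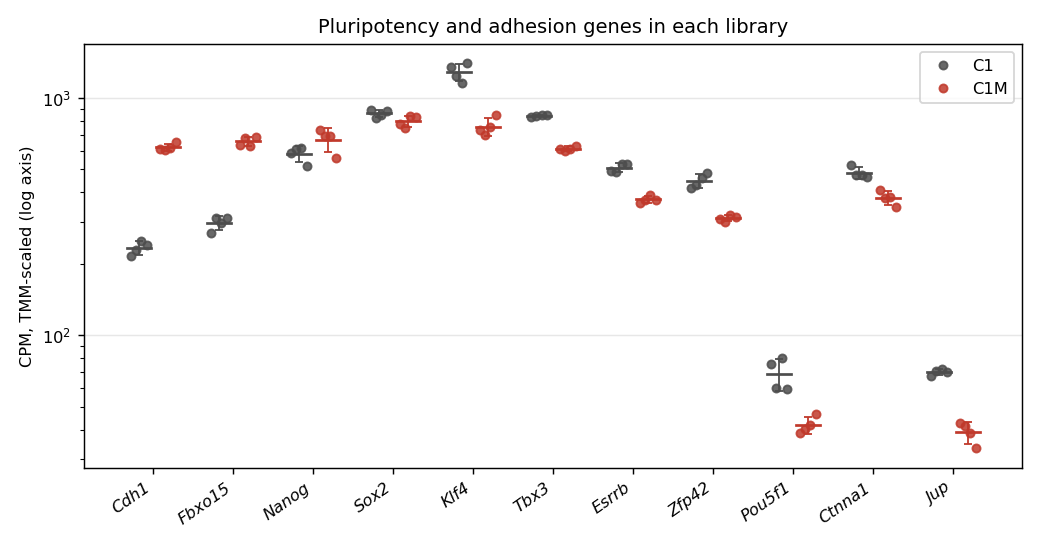
CPM of 11 pluripotency and adhesion genes in each library (log axis), with C1 in grey and C1M in red, points for single libraries, and bars for the mean ± SD (n = 4 per group). C1M lay above C1 for Cdh1 and Fbxo15, overlapped it for Nanog and Sox2, and lay below it for the other 7 genes.

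Naive pluripotency genes split. Of 26 tested, 7 rose and 8 fell (26.9% and 30.8%, against 14.3% and 12.0% of all genes), with a median log2 fold change of 0.14. The members are abundant, with a median level of 179 CPM, and their shares lay near those of all genes of 100 to 500 CPM (19.0% and 33.03%). Their summed level overlapped when scaled by library totals, at 10388 to 11085 CPM in C1 and 10278 to 10633 CPM in C1M, but not with TMM factors, a scaling added after the values were seen, at 10637 to 11341 CPM in C1 and 10028 to 10467 CPM in C1M. Fbxo15, an F-box protein gene that marks pluripotent cells, had 270.3, 311, 296 and 312 CPM in C1 and 631, 678, 629.5 and 683 CPM in C1M (log2 fold change 1.14 ± 0.07, edgeR adjusted p = 1.17e-29), and C1H was higher again than C1M (edgeR adjusted p = 2.64e-05). Socs3, a LIF feedback gene, rose by 0.68 ± 0.13 (edgeR adjusted p = 1.25e-05). Prdm14 rose by 0.49 ± 0.15 (edgeR adjusted p = 0.011), a call lost without C1 replicate 1 or C1M replicate 2.

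Klf4, a core naive transcription factor, fell from 1349.8, 1234, 1158 and 1399 CPM in C1 to 732, 697, 750.5 and 846 CPM in C1M (log2 fold change -0.77 ± 0.09, edgeR adjusted p = 1.99e-10). Tbx3 had 834, 840.2, 844 and 844 CPM in C1 and 612, 598, 611 and 627 CPM in C1M, and Esrrb had 494, 487, 525 and 528 CPM in C1 and 359.6, 373, 390.2 and 371 CPM in C1M. Both fell with no overlap, by 0.46 ± 0.08 and 0.44 ± 0.08 on the log2 scale (edgeR adjusted p = 1.33e-06 and 1.33e-05). Zfp42, also called Rex1, fell by 0.52 ± 0.13 (edgeR adjusted p = 0.0037).

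Nanog had 584, 607, 615 and 517 CPM in C1 and 734, 689.6, 689 and 556 CPM in C1M, overlapping ranges whose difference of 0.20 ± 0.08 (edgeR adjusted p = 0.0375) was lost in DESeq2, in the likelihood ratio test and in 6 of the 8 fits that each left out 1 library. Of 14 general pluripotency genes, 6 fell (42.9%, against 12.0% of all genes, 33.03% of those of 100 to 500 CPM and 42.3% of those above 500 CPM) and 0 rose in edgeR (1 rose at an unadjusted p under 0.05, and 0 in DESeq2). Their median level was 128 CPM. Pou5f1, which encodes OCT4, had 76.0, 60.0, 79.9 and 59.5 CPM in C1 and 38.6, 40.4, 41.7 and 46.6 CPM in C1M (log2 fold change -0.72 ± 0.12, edgeR adjusted p = 9.32e-07). Near-identical copies of Pou5f1 lie elsewhere in the genome and reads that fit several places were not counted, so its level is uncertain. Foxd3 fell by 0.47 ± 0.17 (edgeR adjusted p = 0.0294), a call lost in DESeq2, under library-size scaling and without C1 replicate 1 or 2 or C1M replicate 2 or 4. Sox2 had 890.2, 823, 849 and 877 CPM in C1 and 778, 747, 838 and 829 CPM in C1M (log2 fold change -0.11 ± 0.08, edgeR adjusted p = 0.363).

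The lineage lists are read beside 14.3% of all genes upregulated, 12.0% downregulated and 26.3% called, and were not tested against each other. Of 18 early post-implantation epiblast genes 4 rose and 4 fell (44.4% called), of 28 endoderm genes 4 rose and 7 fell (39.3%), of 21 mesoderm and primitive streak genes 4 rose and 2 fell (28.6%), and of 19 ectoderm and neural genes 5 rose and 1 fell (31.6%). The endoderm list had 15 members with a mean CPM of at least 5, of which 2 rose and 7 fell, and its summed level was 4780 to 5229 CPM in C1 and 3531 to 3909 CPM in C1M, without overlap. The median level of its members was 7.58 CPM and the highest 2033 CPM, so the sum rests mainly on a few abundant genes. Of the mesoderm list 17 members passed the filter on low values from the other 24 libraries alone, and the rises in Hand2 and Foxf1, factors of heart and lateral mesoderm, were not among them. The calls of both were lost without C1 replicate 1 or 4, that of Hand2 also in DESeq2, and that of Foxf1 also without C1 replicate 3, without a filter and with the replicate block. In the ectoderm list, 16 of 19 members passed that filter from the other 24 libraries alone, and 9 had at most 3 counts in every C1 library. At a mean CPM of at least 5 it had 8 members, of which 3 rose and 1 fell. Of 14 primordial germ cell genes 4 rose, Dazl and Ddx4 among them, and 3 fell: Dnd1, an RNA-binding protein of germ cells, by 1.20 ± 0.39 on the log2 scale (edgeR adjusted p = 0.014, a call lost without C1 replicate 4 or C1M replicate 4), Alpl, an alkaline phosphatase gene, by 0.89 ± 0.11 (edgeR adjusted p = 2.48e-11) and Ifitm1 by 0.82 ± 0.12 (edgeR adjusted p = 4.32e-08). Of 12 trophectoderm genes 4 rose and 0 fell in edgeR (0 fell at an unadjusted p under 0.05, and 0 in DESeq2). Etv4, an ETS factor that FGF and ERK signaling induce, had 37.8, 23.8, 15.6 and 33.1 CPM in C1 and 8.07, 5.68, 8.48 and 7.02 CPM in C1M (log2 fold change -1.93 ± 0.23, edgeR adjusted p = 4.22e-10). Sox11, a neural SOX factor, rose from 10.1, 11.9, 8.82 and 13.9 CPM in C1 to 33.1, 26.6, 39.1 and 37.97 CPM in C1M (edgeR adjusted p = 2.72e-15), and Sox4 from 11.8, 13.0, 13.5 and 12.5 CPM in C1 to 32.7, 27.7, 29.99 and 27.2 CPM in C1M (edgeR adjusted p = 1.6e-09).

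Pou3f1, an epiblast factor also called Oct6, had 4.197, 4.53, 4.15 and 4.32 CPM in C1 and 10.2, 8.16, 8.80 and 7.43 CPM in C1M (edgeR adjusted p = 0.0372), and the call was lost in each of the 8 fits that left out 1 library. Fgf5, a marker of the primed epiblast, had at most 1 count in each C1 library and at most 2 in each C1M library. Gata6, a primitive endoderm factor, had 7, 1, 2 and 1 counts in C1 and 9, 13, 8 and 10 counts in C1M (log2 fold change 1.45 ± 0.46, edgeR adjusted p = 0.0104), a call lost without C1 replicate 4 and after thinning to 1 depth. Among abundant endoderm genes, Sparc, a matrix protein gene, fell from 1410.2, 1227, 1208 and 1472 CPM in C1 to 817, 829, 856 and 920.0 CPM in C1M (log2 fold change -0.64 ± 0.07, edgeR adjusted p = 6.63e-15). Esx1, an X-linked homeobox gene of the placenta, rose from 2.52, 0, 0.519 and 0.959 CPM in C1 to 11.9, 11.7, 12.4 and 17.7 CPM in C1M (log2 fold change 3.55 ± 0.43, edgeR adjusted p = 5.71e-12).

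Of 18 tested genes of DNA methylation, 6 fell and 2 rose, or 33.3% and 11.1% against 12.0% and 14.3% of all genes. Their median level was 46.8 CPM, and falls made up 17.0% of all genes of 20 to 100 CPM and 33.03% of those of 100 to 500 CPM. Uhrf1, which brings the maintenance methyltransferase to replicated DNA, had 375, 311, 279.8 and 282 CPM in C1 and 159, 158, 169 and 148 CPM in C1M (log2 fold change -0.98 ± 0.11, edgeR adjusted p = 2.52e-09). The dioxygenase genes Tet1 and Tet2, whose products oxidize methylcytosine, also fell, Tet1 from 1006, 1026, 910.5 and 933 CPM in C1 to 600.2, 501, 670.3 and 626 CPM in C1M, and Tet2 by 0.82 ± 0.09 (edgeR adjusted p = 5.59e-13). Dnmt3b, a de novo methyltransferase gene, had 35.3, 37.4, 30.1 and 21.6 CPM in C1 and 20.4, 17.7, 22.8 and 21.5 CPM in C1M, with C1 replicate 4 inside the C1M range (log2 fold change -0.59 ± 0.16, edgeR adjusted p = 0.00283). Among 32 imprinted genes 5 rose and 7 fell (37.5% called, against 26.3% of all genes), and Peg10, a paternally expressed retrotransposon-derived gene, fell from 221, 203, 179 and 206 CPM in C1 to 75.1, 65.3, 86.7 and 75.9 CPM in C1M (edgeR adjusted p = 6.67e-27).

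Stress, growth and cell cycle lists are read against 14.3% of all genes upregulated, 12.0% downregulated and 26.3% called. Of 39 genes of the integrated stress response 16 rose (41.0%) and 5 fell, of 26 p53 targets 5 rose and 2 fell (26.9% called), and of 31 ERK feedback and immediate early genes 8 rose (25.8%) and 3 fell. Pmaip1, which encodes the cell death protein NOXA, rose from 2.10, 6.79, 5.19 and 3.36 CPM in C1 to 13.2, 17.0, 17.3 and 17.7 CPM in C1M (log2 fold change 1.95 ± 0.27, edgeR adjusted p = 6.06e-10). Cdkn1a, the p21 gene, rose by 0.64 ± 0.08 (edgeR adjusted p = 2.47e-10), and Plk3 fell by 1.60 ± 0.25 (edgeR adjusted p = 8.16e-08). Ddit4, a brake on mTOR signaling, rose by 1.03 ± 0.19 (edgeR adjusted p = 0.0002). Of 13 genes of the mitochondrial unfolded protein response 1 rose and 3 fell, of 38 proteasome genes 8 rose and 7 fell (39.5% called), and of 76 mitochondrial ribosomal protein genes 13 rose and 5 fell (23.7% called). In the cell cycle, 11 of 45 DNA replication genes rose and 6 fell, 9 of 39 mitosis genes rose and 4 fell, and 4 of 19 G1 cyclin and CDK inhibitor genes rose and 3 fell, while of 57 replication-dependent histone genes, whose transcripts mostly lack the poly(A) tail that 3′ libraries prime on, 4 rose and 7 fell. Pttg1, securin, rose from 109, 113, 131 and 147 CPM in C1 to 349, 364, 312 and 340.1 CPM in C1M (log2 fold change 1.45 ± 0.09, edgeR adjusted p = 1.04e-30).

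Some of the largest falls at a mean CPM of at least 5 were in genes outside the lists. Lrrc55, an auxiliary subunit gene of BK potassium channels, had 28.1, 13.0, 11.4 and 20.1 CPM in C1 and 1.27, 0.355, 2.28 and 1.24 CPM in C1M, and the fitted level in C1 was 13.7-fold that in C1M (log2 fold change -3.77 ± 0.37, edgeR adjusted p = 1.51e-15). Msln, mesothelin, had 14.7, 12.5, 11.9 and 20.1 CPM in C1 and 0.849, 3.19, 0.652 and 2.06 CPM in C1M (log2 fold change -3.10 ± 0.42). Mdga1, a cell surface protein gene of the nervous system, had 51.6, 52.7, 47.2 and 37.9 CPM in C1 and 8.07, 9.22, 11.4 and 10.3 CPM in C1M (log2 fold change -2.26 ± 0.21). Each of these genes was lower in all 4 C1M libraries than in any C1 library.

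Among genes with a mean CPM of at least 100, Nedd4, a ubiquitin ligase gene, fell from 1662, 1510.5, 1447 and 1559 CPM in C1 to 612, 565, 636 and 576 CPM in C1M (log2 fold change -1.37 ± 0.06, edgeR adjusted p = 9.83e-43). S100 genes of 1 cluster on chromosome 3 went in opposite directions: S100a6 rose from 44.5, 47.6, 48.3 and 50.3 CPM in C1 to 171, 177, 166 and 180.4 CPM in C1M, whereas S100a1 fell by 1.54 ± 0.11 and S100a13 by 1.27 ± 0.10. Cr2, complement receptor 2, had 1.68, 1.70, 0.519 and 0.479 CPM in C1 and 17.4, 10.3, 14.7 and 12.8 CPM in C1M (log2 fold change 3.58 ± 0.42, edgeR adjusted p = 2.56e-12). Thy1, a surface glycoprotein gene that is also on the list of fibroblast markers, was at least 6.63-fold higher in C1M, with 8.49, 9.58, 12.7 and 8.67 CPM there. Of 13 GALNT enzymes, which start mucin-type O-glycans, 4 rose and 1 fell, or 38.5% called beside 26.3% of all genes in a list of few genes. Galnt3 was at least 3.13-fold higher in C1M and Galnt13 had 15, 6, 8 and 11 counts in C1 and 0, 0, 1 and 0 counts in C1M.

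Ddx3y and Eif2s3y, genes of the Y chromosome, were lower in C1M. Ddx3y, a Y-linked RNA helicase, had 41.1, 31.1, 33.2 and 31.6 CPM in C1 and 6.79, 5.32, 6.85 and 4.13 CPM in C1M (log2 fold change -2.56 ± 0.23, edgeR adjusted p = 5.92e-19), and Eif2s3y, a translation initiation factor subunit, fell by 2.06 ± 0.42 (edgeR adjusted p = 5.66e-05). The counts of Ddx3y, Eif2s3y and Uty summed to 45.1 to 56.6 CPM in C1, 7.95 to 11.7 CPM in C1M and 12.4 to 18.6 CPM in C1H. Kdm5d, left out of the sum, was at the floor, with 0, 1, 0 and 0 counts in C1 and 3, 1, 0 and 0 in C1M. At day 4 they summed to 21.6 to 34.9 CPM in the uninduced C1T and to 2.92 to 9.48 CPM over the 4 day 4 groups in which the fusion had been induced. Fewer cells with a Y chromosome and less RNA per cell cannot be told apart here, and the same holds for every level in these bulk libraries.

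Genes of chromosome 8, where Cdh1 lies, were slightly higher as a group. Of 849 tested, 189 rose and 59 fell, with a median log2 fold change of 0.17 against 0.06 over all genes. Chromosome 12 had the same median, with 100 of 551 genes upregulated and 45 downregulated. At a mean CPM of at least 20, the median was 0.09 over 417 genes, against -0.15 to 0.02 on the other chromosomes. The same genes had a median of 0.16 in C1MDT against C1T at day 4, against -0.06 to 0.04 on the other chromosomes. In C1MV, withdrawn from the inducers, it was 0.15 against C1T, with -0.06 to 0.02 on the others. Relative to the median of all genes, chromosome 8 stood between -0.09 and -0.06 in the C1 libraries and between 0.05 and 0.09 in the C1M libraries. Chromosome copy number was not measured, and its part in these values was not tested.

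C1M and C1H, which came from the same treatment, differed in 271 genes (1.77%), and 164 of the 4022 genes changed in C1M differed between them. The C1M libraries are in both comparisons, so the directions are not read. Counted among the calls of each alternative fit, the number was 108 without C1M replicate 1 and 65 without C1M replicate 2. In a fit of only the groups compared it was 349. Genes such as Cdh1 (log2 difference -0.08 ± 0.07 in C1H minus C1M) and Dazl (0.02 ± 0.12) differed little in estimate, which does not show that the fractions act alike.

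A test of whether the effect of induction depended on the day set C1M against C1 beside C1MDT against C1T, which share no library with the former pair. C1MDT is the moderate fraction after 4 days in NDiff227 medium with dox and TMP, and C1T is the knockout after the same time with TMP alone. The effects differed for 1836 of the 4022 genes (45.6%), against 24.4% of all genes tested. The 4022 were chosen by the C1M minus C1 difference that is part of this test, so nothing is read from that share. Of the 4022, 1862 were also called at day 4, where 33.4% of all genes were called, 1331 in the same direction and 531 in the opposite one; these 1331 were 33.1% of the C1M calls and 26.1% of the 5103 calls at day 4. The overlap and the shared direction were not tested. The log2 fold changes correlated at 0.14 across the 15280 genes, which are not independent replicates.

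For the meiosis and piRNA list, the day 4 effect was lower for all 24 members whose effects differed, and the list had 7 rises and 10 falls at day 4, against 16.9% and 16.5% of all genes. Sycp1, for example, fell by 2.03 ± 0.21 on the log2 scale at day 4, and its effect differed from that in pluripotent culture by -4.69 ± 0.32 (edgeR interaction, adjusted p = 1.85e-27). For glycolysis, the day 4 effect was higher for all 18 members whose effects differed, with 13 rises and 6 falls at day 4. The difference in pluripotent culture enters these tests too, so the day 4 values are given on their own. They share no library with the pluripotent comparison. Per the study's methods, however, the day 4 cultures were seeded from the sorted C1 and C1M populations, so the comparisons are not independent. Cdh1 fell at day 4 by 0.66 ± 0.08, and its effects also differed (edgeR interaction, adjusted p = 2.66e-36). Of 28 endoderm genes 20 rose and 3 fell at day 4, with a median log2 fold change of 3.48. In pluripotent culture the median of this list was 0.29, but 0 with genes at the floor set to their bound and -0.21 over the 15 members with a mean CPM of at least 5. In C1MV, the moderate fraction after 4 days in NDiff227 medium with DMSO, which differed from C1T in 30.2% of genes, the endoderm median was 3.17.

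**Figure D5:**
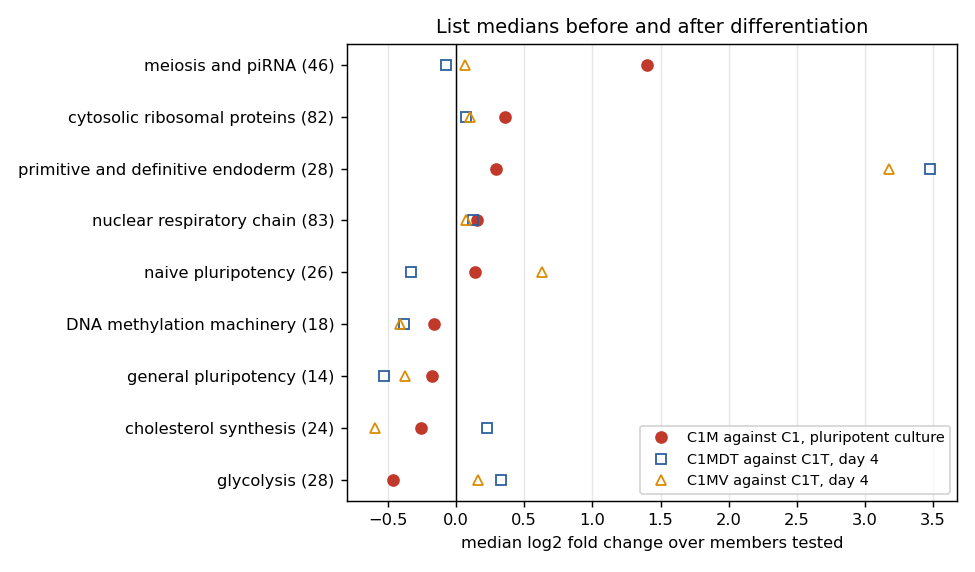
Median log2 fold change of 9 gene lists (number of members tested in brackets) for C1M against C1 in pluripotent culture (red circles), C1MDT against C1T (blue squares) and C1MV, withdrawn from the inducers, against C1T at day 4 (orange triangles). The meiosis list was at 1.40 in pluripotent culture and at -0.07 and 0.07 at day 4, and the endoderm list was at 3.48 and 3.17 at day 4 and at 0.29 in pluripotent culture, where it was -0.21 over members with a mean CPM of at least 5.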

How the data were processed

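RNA from 32 samples in 8 groups of 4 was sequenced with a QuantSeq 3′ kit. The deposited files hold raw counts per gene, which the authors made by trimming with bbduk, alignment with STAR to mm10 and counting with htseq-count, per the study's methods. The rows for reads without a gene (20.3% ± 0.605 of unique reads in C1 and 20.7% ± 0.708 in C1M, SD, n = 4) were kept out of library sizes. The study treated the replicates as batches in a correction used for some displays. The labels give no batch, so none entered the main fit, and a replicate block was fitted as an alternative. IDs were named from GENCODE vM21 (31011 of 31053), and promoters come from RefSeq.

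Genes with a CPM of at least 1 in at least 4 libraries were fitted with edgeR 4.0.16 (TMM, quasi-likelihood, R 4.3.3) over all 32 libraries, with contrasts between groups, Benjamini-Hochberg adjustment over all 15280 genes and a threshold of 0.05. CPM values are scaled by TMM, except shares and summed levels, which are scaled by library totals. The naive pluripotency sum is also given with TMM factors. SE is that of the log2 fold change. A gene with at most 3 counts in every library of a group is at the floor, and bounds and floors cover counting error only. The script was tested on simulated data.

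Single genes named are Ctnnb1, Axin2, the largest changes without overlap at a mean CPM of at least 5 and 100, up to 3 rises and 3 falls per list, and core pluripotency and qPCR genes, and Sycp1, Mov10l1, Taf7l, Brdt, Uty and Kdm5d as exceptions. Some genes that these rules name are not reported here. The comparison, the gene lists and these rules were chosen with earlier results of these data known. Alternatives were other scaling factors, DESeq2 1.42.0, other filters, thinned counts, a likelihood ratio test, a replicate block, a fit of fewer groups and each library left out.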

Additional observations from a re-analysis of the deposited data

Results flagged for a closer look

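In 210 tests of a group of 4 libraries (96 genes and 9 library measures in 2 groups), the highest or lowest library stood apart in 11, where chance gives about 1 in 20. C1 replicate 4 had 3.36 CPM of Slc25a31 against 2.08 to 2.26 in the other C1 libraries, and 0.479 CPM of Galnt3 against 0 in the others. C1 replicate 2 had 169 CPM of Alpl against 123 to 130, and 0.566 CPM of Foxf1 against 0. C1 replicate 3 had 1.04 CPM of Hand2 against 0, and 112 CPM of Neat1, a nuclear long noncoding RNA, against 126 to 129. C1M replicate 1 had 2.12 CPM of Mei1, a meiosis gene, against 0.652 to 0.826, and 13.2 CPM of Pmaip1 against 17.0 to 17.7. C1M replicate 3 had 0.978 CPM of Eif2s3y against 2.89 to 3.19, and 0.326 CPM of Galnt13 against 0. C1M replicate 4 had 17.7 CPM of Esx1 against 11.7 to 12.4. At the lowest of these levels the gap is a matter of 1 count.

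The effect of induction differed between pluripotent culture and day 4 (C1MDT against C1T) for 67 of the same 96 genes, by the interaction in edgeR at an adjusted p under 0.05. Most of these genes were chosen for their difference between C1M and C1, which is part of the quantity tested, so nothing is read from the direction of the differences. The values that follow are the day 4 log2 fold change minus that in pluripotent culture, and those of genes at the floor in a group depend on the prior count.

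Germline and 2-cell-like genes had lower effects at day 4, by -2.88 for Dazl, -1.53 for Ddx4, -2.68 for Slc25a31, -3.00 for Tex19.2, -4.69 for Sycp1, -3.11 for Mov10l1, -3.78 for Taf7l and -5.90 for Mei1, and by -3.17 for Gm8300, -4.35 for Spz1, -5.38 for Zfp352 and -3.79 for BB287469. Among Wnt and adhesion genes the difference was 0.96 for Ctnnb1, -2.06 for Cdh1, 0.96 for Jup, 0.73 for Ctnna1, -3.16 for Tnfrsf19, -1.56 for Nkd2, 0.37 for Tcf7l1, 0.42 for Apc and 0.42 for Csnk1a1. Among pluripotency genes it was -0.86 for Fbxo15, -0.33 for Nanog, 0.89 for Klf4, 0.51 for Tbx3, -0.61 for Esrrb and -0.64 for Sox2. Lineage genes differed both ways, with 4.54 for Sparc, 4.00 for Dab2, 2.41 for Gata6 and 1.61 for Etv4 on the higher side, and -1.74 for Pou3f1, -1.97 for Sox3, -1.30 for Sox4, -0.97 for Sox11 and -2.36 for Esx1 on the lower side, and the primordial germ cell genes gave 1.51 for Dnd1, 1.11 for Ifitm1 and -1.17 for Alpl. Genes of DNA methylation and imprinting gave 0.55 for Uhrf1, -0.60 for Tet1, -0.68 for Tet2, 0.46 for Dnmt3b and 1.01 for Peg10. 

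Metabolic genes that were lower in C1M had higher effects at day 4, with 1.63 for Slc16a3, 1.91 for Pfkl, 1.21 for Bnip3, 2.60 for Ndufa4l2 and 1.58 for Fasn. Genes higher in C1M had lower ones, with -1.20 for Txnip, -1.16 for Ndufa4, -0.50 for Rpl36, -0.55 for Rpl12 and -0.56 for Rps10. Of the other genes, higher effects at day 4 were found with 3.40 for S100a1, 2.44 for S100a13, 2.50 for Ahnak and 1.23 for Nedd4, and lower ones with -3.02 for Lrrc55, -3.04 for Thy1, -3.03 for Cr2, -1.19 for S100a6, -0.62 for Prps1, -1.63 for Neat1, -2.45 for Pmaip1, -0.81 for Cdkn1a and -5.17 for Galnt3.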

How the results depend on the processing

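The total of 4022 calls ranged from 3285 (without C1 replicate 1) to 4360 (likelihood ratio test) over the alternatives, and genes called both ways kept their direction in each of these. Of 268 comparisons of leading results with an alternative, 256 stayed on their side of the threshold or within 1.5 times the count. For the other list counts, 1060 comparisons stayed within 1.5 times the count and 107 did not. For single genes, 3080 comparisons stayed on their side of the threshold, 157 lost the call, 1 gained it and 3 changed sign. The genes that differed between C1M and C1H were counted among the C1M against C1 calls of the same setting. The number was 164 of 4022 in the main fit and 349 of 4065 with only the groups compared in the fit. It was 65 to 169 with 1 library left out, where 3285 to 3649 genes were called. The 21 members of the 2-cell-like list that rose became 2 with a CPM of at least 1 in all 8 libraries and 5 at a mean CPM of at least 5, since fewer genes were then tested. Ctnnb1 passed at 0.67 with library sizes (adjusted p = 0.0303), 0.64 with upper quartile factors (0.0412), 0.62 with the stricter filter (0.0449) and 0.61 in the likelihood ratio test (0.0434), and ranged from 0.38 to 0.81 with 1 library left out. The cause was not tested. Fgf5, which never passed, changed sign without C1 replicate 3 (-0.17), C1 replicate 4 (-0.19) or C1M replicate 4 (-0.78), in a range up to 0.67. Of 96 genes examined one by one, 92 were called, of which 74 kept the call throughout and 18 lost it at least once. The replicate number as a block gave 2144 rises and 1800 falls, and of these 3944 calls 157 differed between C1M and C1H and 1783 differed by day. Libraries of the same number had correlated deviations of -0.00 to 0.04 and others of -0.04 to 0.05, and 4 of 8 correlated best with their own number, so the numbers were not taken as pairs. Depth limits the low genes: 3 counts were 0.997 to 1.67 CPM.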

Other observations

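Of 502 lincRNA genes tested, 81 rose and 17 fell (16.1% and 3.39%), with a median log2 fold change of 0.41. Among all genes of 2 to 5 CPM the shares were 15.6% and 3.02% and the median 0.28, and among those below 2 CPM 8.16% and 1.04% and 0.49, so nothing particular to lincRNA genes is read from their shares. Neat1, a long noncoding RNA that builds nuclear paraspeckles, rose by 1.25 on the log2 scale (edgeR adjusted p = 6.84e-28), from 126, 129, 112 and 127 CPM in C1 to 287, 306, 285 and 299 CPM in C1M. Among protein-coding genes, Prps1, a nucleotide synthesis enzyme on the X chromosome, rose from 236, 215, 217 and 288 CPM in C1 to 508, 573, 515 and 612 CPM in C1M (edgeR adjusted p = 1.61e-29). Ahnak, a giant scaffold protein gene, fell from 211, 224, 217 and 242 CPM in C1 to 87.9, 78.0, 77.6 and 85.4 CPM in C1M (edgeR adjusted p = 6.83e-28).

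Of 11 fibroblast markers tested, 2 rose and 2 fell (36.4% called, against 26.3% of all genes), and of 8 blood cell markers 1 fell (12.5%, against 12.0%) and 0 rose in edgeR (0 at an unadjusted p under 0.05, and 0 in DESeq2). Dab2, an endocytic adaptor of the primitive endoderm, had 8.81, 9.06, 4.15 and 4.32 CPM in C1 and 14.9, 18.1, 21.5 and 8.26 CPM in C1M. Sox3, a SOX factor of neural progenitors, had 0.839, 2.26, 0.519 and 0.959 CPM in C1 and 2.12, 3.90, 2.61 and 6.19 CPM in C1M, and its call was lost without C1M replicate 4 and after thinning. Mei1 had 0, 0, 0 and 0 counts in C1 and 5, 2, 2 and 2 counts in C1M, and its call was lost without C1 replicate 1 or C1M replicate 1.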
